A study of Homo sapiens with 19 samples.

Results

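The PDGF and VEGF ligands described here are 8 genes, PDGFA, PDGFB, PDGFC, PDGFD, VEGFA, VEGFB, VEGFC and PGF, out of 44717 gene identifiers counted by RNA-seq. They were chosen as a named list, with earlier results of these data known. All 8 were matched by symbol to an Ensembl identifier. The counts came from 2 human lines. 501Mel is a melanoma line, grown in RPMI 1640 medium with fetal calf serum. It was infected with lentiviral shRNA vectors in 2 sets: shBRG1 with the scramble control shSCR1 (3 samples each), and shMITF with the scramble control shSCR2 (2 samples each). Hermes 3A is a line of untransformed melanocytes, grown in the same base medium with TPA, cholera toxin, stem cell factor and endothelin-1 added, and it was infected with shSCR, shBRG1 or shMITF (3 samples each). The added factors were present in every Hermes 3A group, so that line and medium cannot be told apart. Each knockdown used 1 shRNA construct, and no source used here says whether shSCR1 and shSCR2 are different vectors.

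The PDGF and VEGF proteins are secreted, disulphide-linked dimers that share a cystine-knot fold. PDGFA, PDGFB, PDGFC and PDGFD signal through the tyrosine kinase receptors PDGFRA and PDGFRB, mainly on fibroblasts, pericytes and other mesenchymal cells. VEGFA is the main driver of blood vessel growth through the receptors FLT1 and KDR, VEGFB and PGF bind FLT1, and VEGFC drives growth of lymphatic vessels through FLT4. Neuropilins (NRP1, NRP2) are co-receptors for several of these ligands. Melanoma cells are known to secrete VEGF ligands, and the targeted proteins are transcriptional regulators: MITF is the master transcription factor of the melanocyte lineage, which binds E-box sequences, and BRG1 (gene SMARCA4) is the ATPase of a chromatin remodelling complex. The comparisons ask how the loss of BRG1 or MITF alters the expression of genes in melanoma cells and in melanocytes.

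Libraries held between 29158502 and 78857900 counted reads. SMARCA4 fell with shBRG1 by 2.36 in 501Mel and by 2.38 in Hermes 3A cells on the log2 scale, and MITF fell with shMITF by 1.06 in 501Mel cells, while its log2 fold change was -0.85 in Hermes 3A cells (adjusted p = 0.019; all tests are edgeR's quasi-likelihood test, adjusted over all genes tested by the Benjamini-Hochberg method). MITF also fell with shBRG1 in 501Mel cells, by 1.55, and was at -0.43 with shBRG1 in Hermes 3A cells. All 7 melanocyte markers (MITF, SOX10, PMEL, MLANA, TYR, TYRP1, DCT) were above 1 CPM in every sample, where CPM are counts scaled to a common library total after TMM normalization. The 3 Hermes 3A shMITF samples differed from each other far more than other replicates: for each of their pairs the chi-square over genes per degree of freedom was between 106 and 157, against 2.28 to 45.7 for pairs in the other groups. In the 501Mel scramble groups, shSCR1 and shSCR2, 11.8% of genes were higher and 19.7% lower in shSCR2, so each knockdown was compared only with its own scramble group. The means of MITF were 575 CPM in shSCR1, 1117 CPM in shSCR2 and 520 CPM in 501Mel shMITF cells. Those of SMARCA4 were 186 CPM in shSCR1 and 327 CPM in shSCR2. In such bulk samples fewer cells of a type and less RNA per cell cannot be told apart. The labels do not say that replicates were separate cultures, so that p-values measure only the spread between these samples.

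The ligand genes lie on 6 chromosomes, with coordinates from the GENCODE 29 annotation of GRCh38 looked up by Ensembl identifier. PDGFA (ENSG00000197461) spans chromosome 7 from 497258 to 520296, PDGFB (ENSG00000100311) chromosome 22 from 39223359 to 39244751, PDGFC (ENSG00000145431) chromosome 4 from 156760454 to 156971394, and PDGFD (ENSG00000170962) chromosome 11 from 103907186 to 104164379, all on the minus strand. VEGFA (ENSG00000112715) spans chromosome 6 from 43770184 to 43786487 and VEGFB (ENSG00000173511) chromosome 11 from 64234538 to 64238793, both on the plus strand. VEGFC (ENSG00000150630) spans chromosome 4 from 176683538 to 176792727 and PGF (ENSG00000119630) chromosome 14 from 74941834 to 74955784, both on the minus strand. All are protein-coding, and the counts are per gene, so that isoforms, such as the splice forms of VEGFA, were not resolved.

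RefSeq promoters (GRCh38.p14) were matched for 5 of the 8 ligands, PDGFA, PDGFD, VEGFB, VEGFC and PGF, with 9 start sites in all, and not for PDGFB, PDGFC and VEGFA. The 250 bases before each start were searched on both strands for the MITF E-box letters CACGTG and CATGTG, the hypoxia element core ACGTG (which lies within CACGTG), the AP-1 site TGACTCA and the SP1 box GGGCGG. Of the 9 windows, only that of VEGFB held an E-box, a single CATGTG 49 bases before the start. None of the 9 held the other E-box, the hypoxia core or the AP-1 site, and all 9 held the SP1 box. Among all 35116 promoter windows of that length, 9.42% held the E-box found in VEGFB, 6.34% the other E-box, 18.5% the hypoxia core, 4.20% the AP-1 site and 42.6% the SP1 box. The 9 windows are not independent of each other, since PDGFA and PGF have several each and those of PGF overlap. The absence of letters in so short a window says nothing of the factor, and a match is not a binding site. The sequences below are 5' to 3' on the strand of the gene, for the ligand that rose in all 4 knockdown comparisons (VEGFC), one that rose in 3 (PDGFA), one that fell (PGF) and the E-box of VEGFB, with the searched letters in capitals. They are the parts of the windows upstream of the annotated gene, except for the VEGFB stretch, which crosses the gene start.
VEGFC, chr4:176792923-176793172, minus strand: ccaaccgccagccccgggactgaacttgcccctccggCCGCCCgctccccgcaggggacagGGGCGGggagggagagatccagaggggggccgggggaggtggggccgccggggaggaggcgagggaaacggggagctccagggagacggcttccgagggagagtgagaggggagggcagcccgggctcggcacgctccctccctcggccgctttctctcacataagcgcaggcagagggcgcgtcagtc
PDGFA, chr7:520297-520476, minus strand: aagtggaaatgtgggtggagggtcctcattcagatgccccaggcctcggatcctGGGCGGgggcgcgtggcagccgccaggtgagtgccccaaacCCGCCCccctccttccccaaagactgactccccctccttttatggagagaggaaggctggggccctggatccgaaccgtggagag
PGF, chr14:74955785-74956014, minus strand: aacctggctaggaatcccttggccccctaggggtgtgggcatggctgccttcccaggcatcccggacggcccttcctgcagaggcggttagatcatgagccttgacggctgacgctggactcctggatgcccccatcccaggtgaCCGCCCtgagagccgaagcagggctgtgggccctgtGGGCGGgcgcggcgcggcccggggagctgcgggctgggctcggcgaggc
VEGFB, chr11:64234523-64234552, plus strand: gcgtgtctgggtCACATGagccgcctgccc
In the VEGFC stretch the capitals are 2 SP1 boxes, in the PDGFA and PGF stretches 2 each, and in the VEGFB stretch the E-box, read there from the opposite strand.

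Without a knockdown, VEGFB was the most abundant ligand per length in each of the 3 scramble groups, and PDGFA and PDGFB the least. On the scale of CPM per kb of merged exons, with all 19 samples normalized together, VEGFB had 34.0 ± 4.14 in 501Mel shSCR1 (SD, n = 3), 62.3 ± 4.07 in 501Mel shSCR2 (SD, n = 2) and 86.6 ± 1.37 in Hermes 3A shSCR cells (SD, n = 3). In shSCR1 cells the order below VEGFB was VEGFA (9.12), PGF (3.59), PDGFD (2.37), PDGFC (0.753), VEGFC (0.442), PDGFB (0.201) and PDGFA (0.0614), and no neighbours in that order overlapped between samples. In shSCR2 cells VEGFA (2.86), PDGFD (2.78) and PGF (2.32) each overlapped with the next in that order, followed by VEGFC (0.948), PDGFC (0.674), PDGFA (0.0522) and PDGFB (0.00725). In Hermes 3A shSCR cells VEGFA (1.63), VEGFC (1.45) and PGF (1.41) each overlapped with the next in that order, and PDGFD (0.870), PDGFC (0.561), PDGFA (0.367) and PDGFB (0.00202) followed without overlap. The distance between VEGFB and VEGFA depended on the length used, since the merged exons of VEGFA span 14431 bases and its longest protein-coding transcript 3535 bases. VEGFB over VEGFA was 3.73 in shSCR1 cells per merged exons and 1.02 per longest protein-coding transcript, where the samples of both genes overlapped. The library protocol includes a nuclease step that lowers the most abundant cDNAs, and levels between genes are subject to it.

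**Figure D1:**
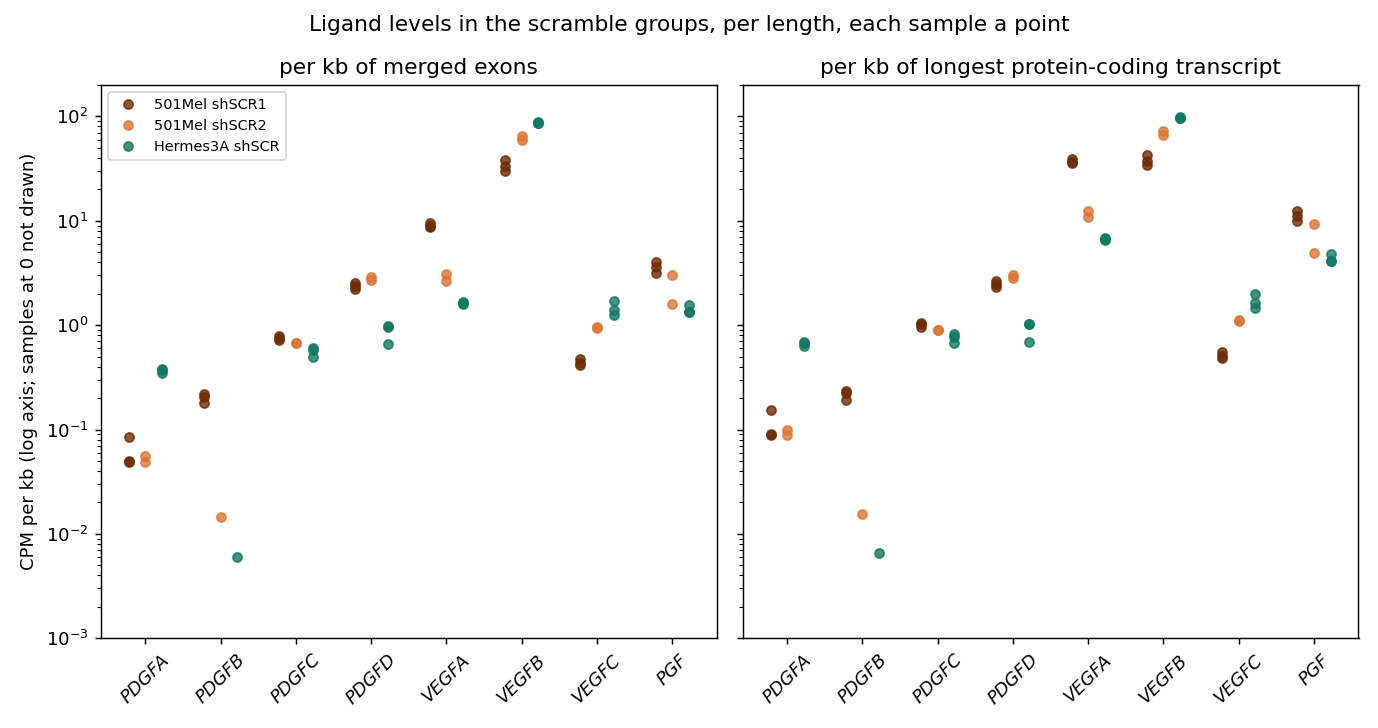
Levels of the 8 ligands in the 3 scramble groups in CPM per kb on a log axis, per kb of merged exons (left) and of the longest protein-coding transcript (right), with 1 point per sample and samples at 0 not drawn. VEGFB is highest in all 3 groups on the left, and on the right the shSCR1 points of VEGFA reach those of VEGFB.

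Between the lines, the mean of the 501Mel scramble groups was above Hermes 3A shSCR for 4 of the 8 ligands (20.1% of 20354 genes tested were higher) and below it for 2 (18.0% were lower). Here and below, a gene was called when it was past both thresholds, 0.05 for the adjusted p and 1 for the size of the log2 fold change, and SE is the standard error of the latter. VEGFA was higher in 501Mel cells by 1.64 (SE 0.0661, adjusted p = 6.5e-13 by edgeR) and PDGFD by 1.55 (SE 0.132, adjusted p = 1.3e-08 by edgeR) on the log2 scale. PDGFA was lower, with a log2 fold change of -2.73 (SE 0.252, adjusted p = 3.8e-08 by edgeR), and so was VEGFC, with -1.16 (SE 0.161, adjusted p = 5.3e-06 by edgeR). PGF, at 1.01, lay at the edge of the fold threshold and was under it without shSCR1 replicate 1 (0.98), without shSCR2 replicate 1 (0.78) and without Hermes 3A shSCR replicate 1 (0.97) or 3 (0.98). PDGFB was hardly detected in Hermes 3A cells, with 0, 0 and 1 counts in the shSCR samples against 40, 41 and 23 counts in the shSCR1 samples. On normalized totals that is a ratio of 93.2, with an exact 95% interval from 16.4 to 3720, which covers counting error only; without shSCR2 replicate 2 the difference between the lines in PDGFB was not past the threshold (fitted value 2.09, adjusted p = 0.957 by edgeR). VEGFB (-0.92) and PDGFC (0.34) were not past the fold threshold.

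The 501Mel scramble groups also differed from each other in 3 ligands, 1 of which was higher and 2 lower in shSCR2 (11.8% and 19.7% of genes were higher and lower). VEGFA had 138, 129 and 127 CPM in shSCR1 and 44.1 and 38.4 CPM in shSCR2. The groups were far apart, with a log2 fold change of -1.66 (SE 0.0795, adjusted p = 5.5e-11 by edgeR). PDGFB had 40, 41 and 23 counts in shSCR1 and 0 and 4 in shSCR2, a ratio of 19.9 with an exact 95% interval from 7.55 to 74.5 for counting error only. VEGFC was higher in shSCR2 by 1.12 (SE 0.213, adjusted p = 0.00021 by edgeR). PGF had a log2 fold change of -0.65 and was called lower in shSCR2, at -1.12, only without shSCR2 replicate 1. The comparison of the lines therefore depended on the scramble group used. With shSCR2 only for 501Mel cells, VEGFA (0.80), VEGFC (-0.62) and PGF (0.69) were under the fold threshold. With shSCR1 only, VEGFB was called as lower in 501Mel cells (-1.35).

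**Figure D2:**
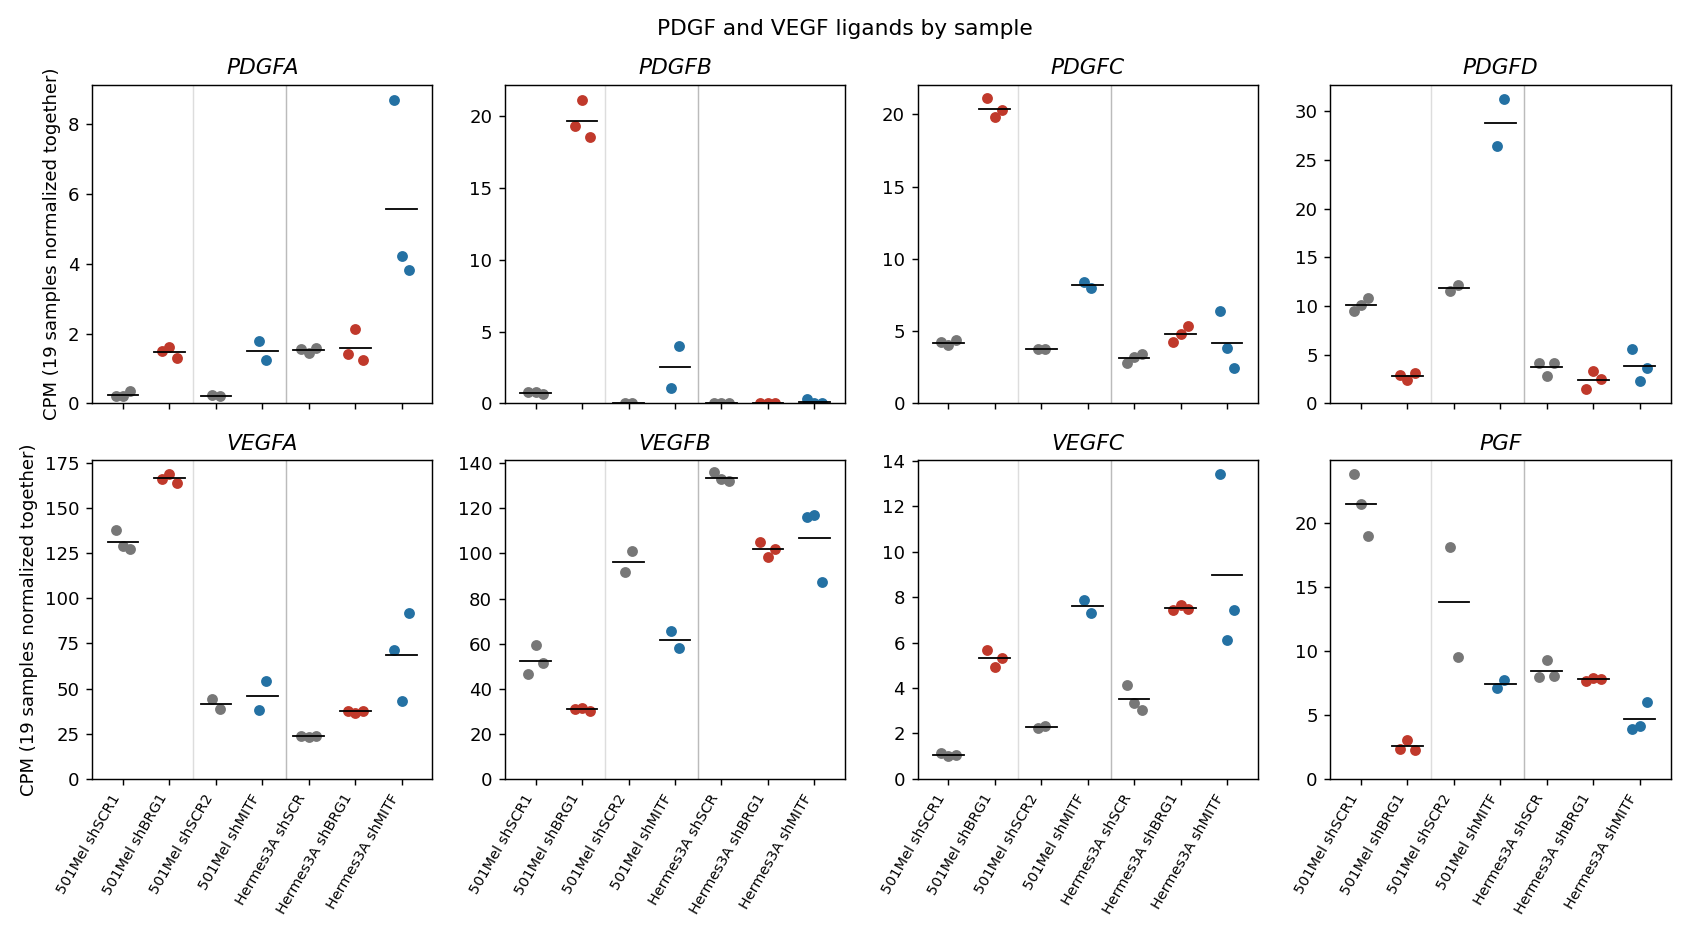
CPM of each ligand in the 19 samples (normalized together), 1 point per sample and a line at the group mean, grey for scramble, red for shBRG1 and blue for shMITF. Within each panel the axis starts at 0; VEGFC is above its own scramble group in every knockdown sample, and PGF in 501Mel shBRG1 cells is below every other sample.

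With shBRG1 in 501Mel cells, 4 of the 8 ligands rose, PDGFA, PDGFB, PDGFC and VEGFC, and 2 fell, PDGFD and PGF. Of the 20514 genes tested, 21.7% rose and 17.4% fell, so calls in both directions were frequent among all genes. The median log2 fold change of the 8 was 1.24, beside 0.053 for all genes tested. Every shBRG1 sample lay on one side of every shSCR1 sample for each of the 8 ligands.

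PDGFB, whose product binds both PDGF receptors, had 0.819, 0.779 and 0.673 CPM with shSCR1 and 19.3, 21.1 and 18.5 CPM with shBRG1. This was the largest rise among the 8, with a log2 fold change of 4.61 (SE 0.112, adjusted p = 1.1e-20 by edgeR), or 24.4-fold. PDGFA, a ligand of PDGFRA, had 10, 11 and 12 counts with shSCR1 and 89, 94 and 66 with shBRG1. It was thus expressed at a low level in both groups (0.255 ± 0.0833 and 1.48 ± 0.162 CPM, SD, n = 3 each), with a log2 fold change of 2.52 (SE 0.246, adjusted p = 1.9e-09 by edgeR). PDGFC, secreted as a latent ligand of PDGFRA that needs proteolysis, had 4.24, 4.01 and 4.39 CPM with shSCR1 and 21.1, 19.8 and 20.3 CPM with shBRG1. The replicates of each group were tight, and the log2 fold change was 2.22 (SE 0.0773, adjusted p = 8.1e-18 by edgeR). PDGFD, the other latent PDGF and a ligand of PDGFRB, went the opposite way. It had 9.48, 10.1 and 10.8 CPM with shSCR1 and 2.93, 2.40 and 3.08 CPM with shBRG1, a log2 fold change of -1.92 (SE 0.102, adjusted p = 2.4e-14 by edgeR).

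Among the VEGF ligands, VEGFC had 1.15, 1.01 and 1.05 CPM with shSCR1 and 5.69, 4.92 and 5.31 CPM with shBRG1. Its log2 fold change was 2.24 (SE 0.131, adjusted p = 1.6e-13 by edgeR). PGF (placental growth factor) had 23.8, 21.5 and 19.0 CPM with shSCR1 and 2.30, 3.04 and 2.27 CPM with shBRG1. It fell by 3.14 on the log2 scale (SE 0.104, adjusted p = 3e-18 by edgeR), or 8.83-fold, the largest fall of the 8. The more abundant VEGFA and VEGFB were less affected and were not past the fold threshold: VEGFA had a log2 fold change of 0.27 (SE 0.0459, adjusted p = 1.1e-05 by edgeR) and VEGFB one of -0.82 (SE 0.067, adjusted p = 8.4e-11 by edgeR). The summed melanocyte markers were between 29300 and 31500 CPM with shSCR1 and between 3110 and 3410 CPM with shBRG1, and the 6 summed fibroblast markers between 3.57 and 4.98 and between 16.1 and 19.5 CPM, and their part in these results was not tested. With library sizes in place of TMM the median of all genes moved from 0.053 to 0.40, but the 6 calls remained. Against both scramble groups pooled, VEGFB was also called as fallen (-1.21, adjusted p = 0.00772 by edgeR).

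With shMITF in 501Mel cells, all 4 PDGF ligands and VEGFC rose and none of the 8 fell. Of the 17701 genes tested, 5.59% rose and 3.40% fell. The median log2 fold change of the 8 was 1.24, beside 0.010 for all genes. Each group had 2 samples.

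PDGFA had 7 and 15 counts with shSCR2 and 81 and 64 with shMITF, or 0.229 and 0.204 CPM against 1.79 and 1.24 CPM. The groups did not overlap, with a log2 fold change of 2.85 (SE 0.433, adjusted p = 0.0029 by edgeR). PDGFB had 0 and 4 counts with shSCR2 and 47 and 207 with shMITF. The shMITF samples were both higher, but they were far from each other (1.04 and 4.01 CPM). The test called the rise (SE 1.03, adjusted p = 0.0098 by edgeR) at a fitted log2 fold change of 6.06 that rests on 4 control counts, and the ratio of normalized totals was 68.1, with an exact 95% interval for counting error only from 26.3 to 252. Without shSCR2 replicate 2 the control was at 0 and the rise of PDGFB was no longer called (adjusted p = 0.0584 by edgeR). PDGFC had 3.76 and 3.78 CPM with shSCR2 and 8.38 and 7.96 CPM with shMITF, a log2 fold change of 1.16 (SE 0.247, adjusted p = 0.012 by edgeR). PDGFD had 11.5 and 12.2 CPM with shSCR2 and 26.4 and 31.2 CPM with shMITF. These were the highest PDGFD levels of all 19 samples, and the log2 fold change was 1.32 (SE 0.175, adjusted p = 0.0016 by edgeR).

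VEGFC had 2.26 and 2.33 CPM with shSCR2 and 7.88 and 7.32 CPM with shMITF. It rose by 1.77 on the log2 scale (SE 0.267, adjusted p = 0.0028 by edgeR). VEGFA had 44.1 and 38.4 CPM with shSCR2 and 38.1 and 54.1 CPM with shMITF, and the groups overlapped (log2 fold change 0.20, 95% interval from -0.18 to 0.58). VEGFB had 91.7 and 101 CPM with shSCR2 and 65.4 and 57.9 CPM with shMITF, with a log2 fold change of -0.60 (SE 0.125, adjusted p = 0.01 by edgeR) that was not past the fold threshold. PGF had 18.1 and 9.54 CPM with shSCR2 and 7.08 and 7.74 CPM with shMITF. Both shMITF samples were lower, but the controls were far apart (log2 fold change -0.86, adjusted p = 0.086 by edgeR), and PGF was called as fallen, at -1.27, only without shSCR2 replicate 2. The summed melanocyte markers were between 20800 and 23300 CPM with shSCR2 and between 11400 and 11800 CPM with shMITF. TYR went the other way, with 606 ± 12 CPM in shSCR2 and 816 ± 177 CPM in shMITF cells (SD, n = 2 each). The other markers had lower means with shMITF. The part of the markers in these results was not tested. Against both scramble groups pooled, VEGFA turned to -1.02 and PDGFB was not called (adjusted p = 0.264 by edgeR), and in a test against a fold change of 2 (glmTreat) only PDGFA was called.

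With shBRG1 in Hermes 3A cells, VEGFC was the only ligand that was called, and it rose. Of the 17222 genes tested, 5.78% rose and 3.47% fell. PDGFB had 0, 0 and 2 counts with shBRG1 and was not tested, which leaves 7 ligands with a median log2 fold change of 0.094, beside 0.0093 for all genes. VEGFC had 4.13, 3.35 and 3.01 CPM with shSCR and 7.45, 7.66 and 7.47 CPM with shBRG1. The groups did not overlap, with a log2 fold change of 1.12 (SE 0.119, adjusted p = 4.3e-09 by edgeR). VEGFA had 23.9, 23.0 and 23.7 CPM with shSCR and 37.8, 36.7 and 37.5 CPM with shBRG1. The replicates were tight and did not overlap, and the log2 fold change of 0.68 (SE 0.0598, adjusted p = 8.8e-11 by edgeR) was past the adjusted p but not the fold threshold. The same held for PDGFC, at 0.63 (adjusted p = 0.00028 by edgeR), PDGFD, at -0.58 (adjusted p = 0.024 by edgeR), and VEGFB, at -0.38 (adjusted p = 5.6e-09 by edgeR). For PDGFD the groups overlapped. In a test against a fold change of 2 (glmTreat) VEGFC was not called (adjusted p = 0.968 by edgeR).

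PDGFA and PGF, which rose and fell with shBRG1 in 501Mel cells, were not called here. PDGFA had 1.55, 1.44 and 1.58 CPM with shSCR and 1.41, 2.13 and 1.25 CPM with shBRG1, a log2 fold change of 0.09 with a 95% interval from -0.32 to 0.51. PGF had 7.97, 9.32 and 8.01 CPM with shSCR and 7.67, 7.85 and 7.80 CPM with shBRG1. The PGF groups lay next to each other, with a log2 fold change of -0.10 and a 95% interval from -0.29 to 0.086. The summed melanocyte markers were between 63400 and 64600 CPM with shSCR and between 30300 and 31900 CPM with shBRG1, and the summed fibroblast markers between 71.4 and 80.1 and between 139 and 148 CPM, and their part in these results was not tested. COL1A2 made up most of the fibroblast sum (67.3 ± 4.10 CPM in the control and 139 ± 5.50 CPM in the knockdown samples, mean ± SD, n = 3), while LUM had 6.41 ± 0.839 and 3.66 ± 0.231 CPM and the means of COL1A1, COL3A1 and DCN were under 1 CPM in both groups.

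With shMITF in Hermes 3A cells, PDGFA, VEGFA and VEGFC rose and no ligand fell. Of the 16508 genes tested, 3.35% rose and 4.04% fell. PDGFB, with 11, 0 and 0 counts in the shMITF samples, was again not tested, and the median log2 fold change of the other 7 was 0.45, beside 0.045 for all genes. The shSCR samples were the same as in the shBRG1 comparison, so that the results of these 2 comparisons are not independent of each other. Each shMITF sample had 34033 identifiers listed, against 42224 for each shSCR and shBRG1 sample of Hermes 3A cells. No source used here says whether the shMITF samples were prepared together with this control. Knockdown and preparation therefore cannot be told apart.

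VEGFA had 23.9, 23.0 and 23.7 CPM with shSCR and 71.2, 43.0 and 91.9 CPM with shMITF. All shMITF samples were higher, although they differed from each other, with a log2 fold change of 1.57 (SE 0.243, adjusted p = 0.0048 by edgeR). PDGFA had 1.55, 1.44 and 1.58 CPM with shSCR and 8.70, 4.22 and 3.82 CPM with shMITF. Replicate 1 was the highest of the shMITF samples and all 3 were above the controls (log2 fold change 1.90, SE 0.348, adjusted p = 0.0091 by edgeR). VEGFC had 4.13, 3.35 and 3.01 CPM with shSCR and 13.4, 6.13 and 7.45 CPM with shMITF, again with replicate 1 highest (log2 fold change 1.39, SE 0.312, adjusted p = 0.02 by edgeR). Replicate 1 was also highest for PDGFC (6.37, against 3.81 and 2.42 CPM) and PDGFD (5.63, against 2.35 and 3.67 CPM), which overlapped with their controls and were not called. PGF had 7.97, 9.32 and 8.01 CPM with shSCR and 3.90, 4.13 and 5.98 CPM with shMITF. These did not overlap, but the log2 fold change of -0.83 (SE 0.224, adjusted p = 0.038 by edgeR) was not past the fold threshold, and it was past it, at -1.04, without shMITF replicate 3. VEGFB was at -0.30 on the log2 scale (adjusted p = 0.18 by edgeR).

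The calls of VEGFC and PDGFA in this comparison depended on single libraries. Without shMITF replicate 1 the log2 fold change of VEGFC was 0.97, under the fold threshold. Without shSCR replicate 1, 2 or 3 it was 1.51, 1.35 or 1.28, with adjusted p of 0.0547, 0.0982 or 0.104 by edgeR. PDGFA was at 1.85 without shSCR replicate 2 and at 1.91 without shSCR replicate 3, with adjusted p of 0.0588 and 0.0538 by edgeR. The rise of VEGFA was called in each of the 6 fits that left out 1 sample, but none of the 3 rises was called in a test against a fold change of 2 (glmTreat). The summed melanocyte markers were between 25900 and 34000 CPM with shMITF and the summed fibroblast markers between 113 and 218 CPM (COL1A2 142 ± 63.6 CPM, SD, n = 3). Among the melanocyte markers SOX10 had a higher mean with shMITF, 795 ± 438 against 666 ± 41.3 CPM with shSCR (SD, n = 3 each). The other melanocyte markers had lower means. The part of both marker lists in these results was not tested.

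**Figure D3:**
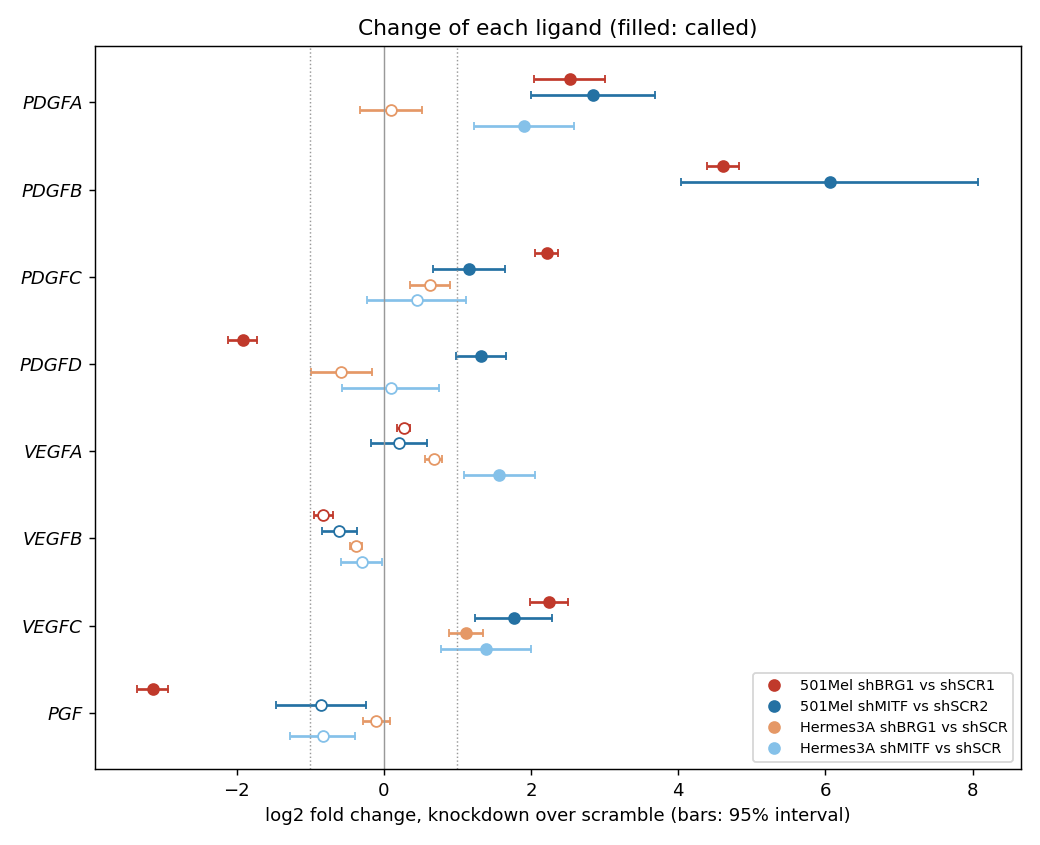
Log2 fold change of each ligand in the 4 knockdown comparisons, with bars for the 95% interval (normal quantile, SE taken from the quasi-likelihood F statistic), filled points for called changes and dotted lines at 1 and -1. VEGFC is filled and to the right in all 4 comparisons; PGF in 501Mel shBRG1 cells, at -3.14, lies farthest to the left, and PDGFB has no point in Hermes 3A cells, where it was not tested.

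Across the 4 comparisons VEGFC was called in each, between 1.12 and 2.24 on the log2 scale. PDGFA was called in 3 and PDGFB and PDGFC in the 2 comparisons of 501Mel cells. PDGFD was called in both directions, as it fell with shBRG1 and rose with shMITF in 501Mel cells. VEGFA was called once, PGF once, as a fall, and VEGFB in none against its own scramble group, although its log2 fold change was negative in all 4, between -0.82 and -0.30.

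The difference between the lines in the effect of shBRG1 was tested itself, as a contrast in 1 fit of 12 samples in which each effect has its own controls. The effect in 501Mel cells was above that in Hermes 3A cells for 3 ligands (12.0% of 21697 genes) and below it for 2 (14.9%). Among the called ligands the difference was largest for PGF, at -3.07 (SE 0.146, adjusted p = 2.2e-20 by edgeR), followed by PDGFA, at 2.39 (SE 0.354, adjusted p = 2.6e-07 by edgeR). PDGFC differed by 1.56 (SE 0.15, adjusted p = 1.4e-11 by edgeR), PDGFD by -1.37 (SE 0.266, adjusted p = 0.00011 by edgeR) and VEGFC by 1.10 (SE 0.191, adjusted p = 4.9e-06 by edgeR). VEGFC was thus higher with shBRG1 in both lines but by a greater amount in 501Mel cells; without Hermes 3A shSCR replicate 1 that difference was 0.93, under the fold threshold. The effects on VEGFA and VEGFB differed by -0.44 and -0.48, and PDGFB, which was not past the threshold (3.99, adjusted p = 0.12 by edgeR), was called without Hermes 3A shBRG1 replicate 3 (6.66), with 0 or 1 counts in each of the remaining Hermes 3A samples. DESeq2 called PDGFB on all samples (4.04, adjusted p = 0.019), with 0 to 2 counts in each Hermes 3A sample.

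For shMITF the same contrast called none of the 8 ligands (2.00% of 19284 genes had a greater and 0.643% a smaller effect in 501Mel cells by edgeR). An unadjusted p under 0.05 was found for 2, VEGFA, with a difference of -1.38 (95% interval from -2.08 to -0.68, adjusted p = 0.061 by edgeR), and PDGFD, with 1.22 (95% interval from 0.38 to 2.06, adjusted p = 0.16 by edgeR). With DESeq2 the difference in VEGFA was called (-1.41, adjusted p = 0.00992). It was also called by edgeR without Hermes 3A shMITF replicate 2 (-1.63), and that of PDGFD without Hermes 3A shMITF replicate 1 (1.60). The intervals of the other ligands were wide, from -0.21 to 2.08 for PDGFA and from -0.51 to 1.24 for VEGFC, so that these data do not show that the effects of shMITF were alike in the 2 lines.

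Within 501Mel cells the effects of shBRG1 and shMITF, each against its own scramble group, differed for 3 ligands. Each knockdown belonged to its own set, so that knockdown and set cannot be told apart. The effect of shBRG1 was above that of shMITF for PDGFC, by 1.08 (SE 0.162, adjusted p = 4.7e-05 by edgeR; 11.8% of 22255 genes were above), and below it for PDGFD and PGF (15.5% were below). PDGFD showed the largest difference of the 8, -3.21 (SE 0.187, adjusted p = 3e-09 by edgeR), since it fell with shBRG1 and rose with shMITF. PGF differed by -2.28 (SE 0.338, adjusted p = 0.00016 by edgeR). In a test against a fold change of 2 (glmTreat) the difference in PDGFC was not called (adjusted p = 0.458 by edgeR). For PDGFA (-0.31), VEGFA (0.093) and VEGFB (-0.19) the 95% intervals of the difference included 0. The difference in VEGFC, 0.51, was under the fold threshold. An unadjusted p under 0.05 by edgeR was found for 4 of the 8 ligands and an adjusted one for 3. PDGFB, at -1.39 with an interval from -4.08 to 1.30, was called as lower without shMITF replicate 1 (adjusted p = 0.0043 by edgeR).

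Of 29 other genes of the pathway (receptors, 1 further ligand, maturation proteases, oxygen sensing, inhibitors), 6 rose and 6 fell with shBRG1 in 501Mel cells among 26 tested, beside 21.7% and 17.4% of all genes. With shMITF 4 rose and none fell among 22 tested, beside 5.59% and 3.40% of all genes. In Hermes 3A cells 9 rose and 3 fell among 26 tested with shBRG1 (5.78% and 3.47% of all genes), and 6 rose and 2 fell among 25 tested with shMITF (3.35% and 4.04% of all genes). The median log2 fold changes of the genes tested were 0.059, 0.60, 0.21 and 0.00076 in that order, beside 0.053, 0.010, 0.0093 and 0.045 for all genes. Between the 501Mel scramble groups 3 of 26 tested were higher and 9 lower in shSCR2, beside 11.8% and 19.7% of all genes.

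NRP1, PDGFRB and FURIN rose in all 4 comparisons, given here first for 501Mel and then for Hermes 3A cells, each with shBRG1 before shMITF. NRP1, the co-receptor that binds VEGFA, rose by 4.16, 2.73, 1.24 and 2.41. PDGFRB rose by 1.31, 2.02, 1.11 and 1.90, and PDGFRA, a receptor of PDGFA and PDGFC, by 1.96, 2.04 and 2.14 in all but 501Mel shMITF cells, where its log2 fold change was 0.81 (adjusted p = 0.26 by edgeR). PDGFRA is also on the fibroblast marker list. These receptors stayed at low levels, with means of at most 2.51 CPM for NRP1, 1.23 CPM for PDGFRB and 1.52 CPM for PDGFRA in any group. Between the 501Mel scramble groups PDGFRB was lower (-1.81) and PDGFRA higher (1.48) in shSCR2 than in shSCR1. The means of PDGFRB were 0.313 CPM in shSCR1, 0.0899 CPM in shSCR2 and 0.352 CPM in 501Mel shMITF cells. Without any 1 of the samples the rise of PDGFRB in 501Mel shMITF cells was no longer called, at 1.83 to 2.11, and in Hermes 3A shMITF cells the calls of PDGFRB and NRP1 were lost without any 1 sample except shMITF replicate 2. NRP1 in Hermes 3A shBRG1 cells was not called without shSCR replicate 1 (1.25) or 3 (0.86) or shBRG1 replicate 1 (1.12), and PDGFRB not without shSCR replicate 2 (0.94) or shBRG1 replicate 2 (0.69). FURIN, a convertase that cleaves the precursors of several of these ligands, rose by 2.27, 1.09, 2.14 and 1.62 from levels of 31.1 ± 1.16 CPM in shSCR1 and 138 ± 11.4 CPM in Hermes 3A shSCR cells (SD, n = 3 each). In shSCR2, the control of 501Mel shMITF cells, FURIN had 62.6 ± 6.32 CPM (SD, n = 2), higher than in shSCR1 by 1.025 on the log2 scale. In 501Mel shMITF cells FURIN was under the fold threshold without shSCR2 replicate 2 (0.97) or shMITF replicate 1 (0.99).

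NRP2, the co-receptor for VEGFC and the most abundant of the 8 receptors and co-receptors in CPM per kb in each scramble group (66.9 in shSCR1, 36.3 in shSCR2 and 48.1 in Hermes 3A shSCR cells), fell by 2.84 with shBRG1 in 501Mel cells and by 1.43 with shMITF in Hermes 3A cells. It had log2 fold changes of -0.57 and -0.50 in the other 2 comparisons. KDR, the main signalling receptor of VEGFA and an endothelial marker, was higher in Hermes 3A shSCR (11.2 ± 0.773 CPM) than in 501Mel shSCR1 cells (1.65 ± 0.543 CPM, SD, n = 3 each), and it fell by 1.71 with shBRG1 in 501Mel cells. The other 501Mel control, shSCR2, had 0.0790 ± 0.0732 CPM of KDR (SD, n = 2), below the mean of 0.530 CPM with shBRG1. For shSCR2 over shSCR1 the log2 fold change of KDR was -4.75. FLT1 rose with shMITF in Hermes 3A cells (2.35) and FLT4, the VEGFC receptor, with shBRG1 in Hermes 3A cells (1.34), from means of 7.67 and 6.00 counts in the shSCR samples. FLT1 was not called without shSCR replicate 1 (2.23), 2 (2.21) or 3 (2.61), and FLT4 not without shSCR replicate 1 (1.17) or 2 (1.13) or shBRG1 replicate 2 (1.24) or 3 (1.25). VEGFD, the remaining VEGF ligand, fell by 1.12 with shBRG1 in Hermes 3A cells, and was at -0.97 without shBRG1 replicate 3.

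Among the other maturation genes PCSK5 rose with shBRG1 in 501Mel (3.65) and in Hermes 3A cells (1.31). Its means in shSCR1 and Hermes 3A shSCR were 6.67 and 4.67 counts. CCBE1, which assists VEGFC processing, rose with shBRG1 in Hermes 3A cells (1.11). PLAU, which can activate PDGFD, rose with shBRG1 in 501Mel cells (3.45, from a mean of 2.00 counts). The call of PCSK5 in Hermes 3A cells was held only without shBRG1 replicate 2 among the 6 fits that left out 1 sample (1.10 to 1.47 in the others), and CCBE1 was at 0.78 without shSCR replicate 3. PCSK6 fell by 1.10 with shBRG1 in 501Mel cells, and was not called with library sizes in place of TMM. Of the 6 oxygen-sensing genes, which include the regulators of VEGFA, EPAS1 fell by 1.87 with shBRG1 in 501Mel cells, and EGLN3 rose with shMITF in 501Mel cells (1.46) and fell by 1.23 with shBRG1 in Hermes 3A cells. EPAS1 was also lower in shSCR2 than in shSCR1 (-1.10). HIF1A, ARNT, VHL and EGLN1 were not called in any of the 4. Of the 5 inhibitors and binders, SPARC fell by 1.35 and SEMA3F by 3.23 with shBRG1 in 501Mel cells. Both were also lower in shSCR2 than in shSCR1 (-1.14 for SPARC and -2.04 for SEMA3F). THBS1, an inhibitor of angiogenesis, rose with both knockdowns in Hermes 3A cells (2.58 and 4.73), from 11.0 ± 1.01 CPM with shSCR (SD, n = 3), and SEMA3A fell by 1.68 and 2.02 there. With shMITF the falls of SEMA3A and the rise of PDGFRA were not called without shSCR replicate 1 (-2.02 and 2.07), 2 (-2.04 and 1.98) or 3 (-2.06 and 2.38), and that of THBS1 not without shSCR replicate 1 (4.65).

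**Figure D4:**
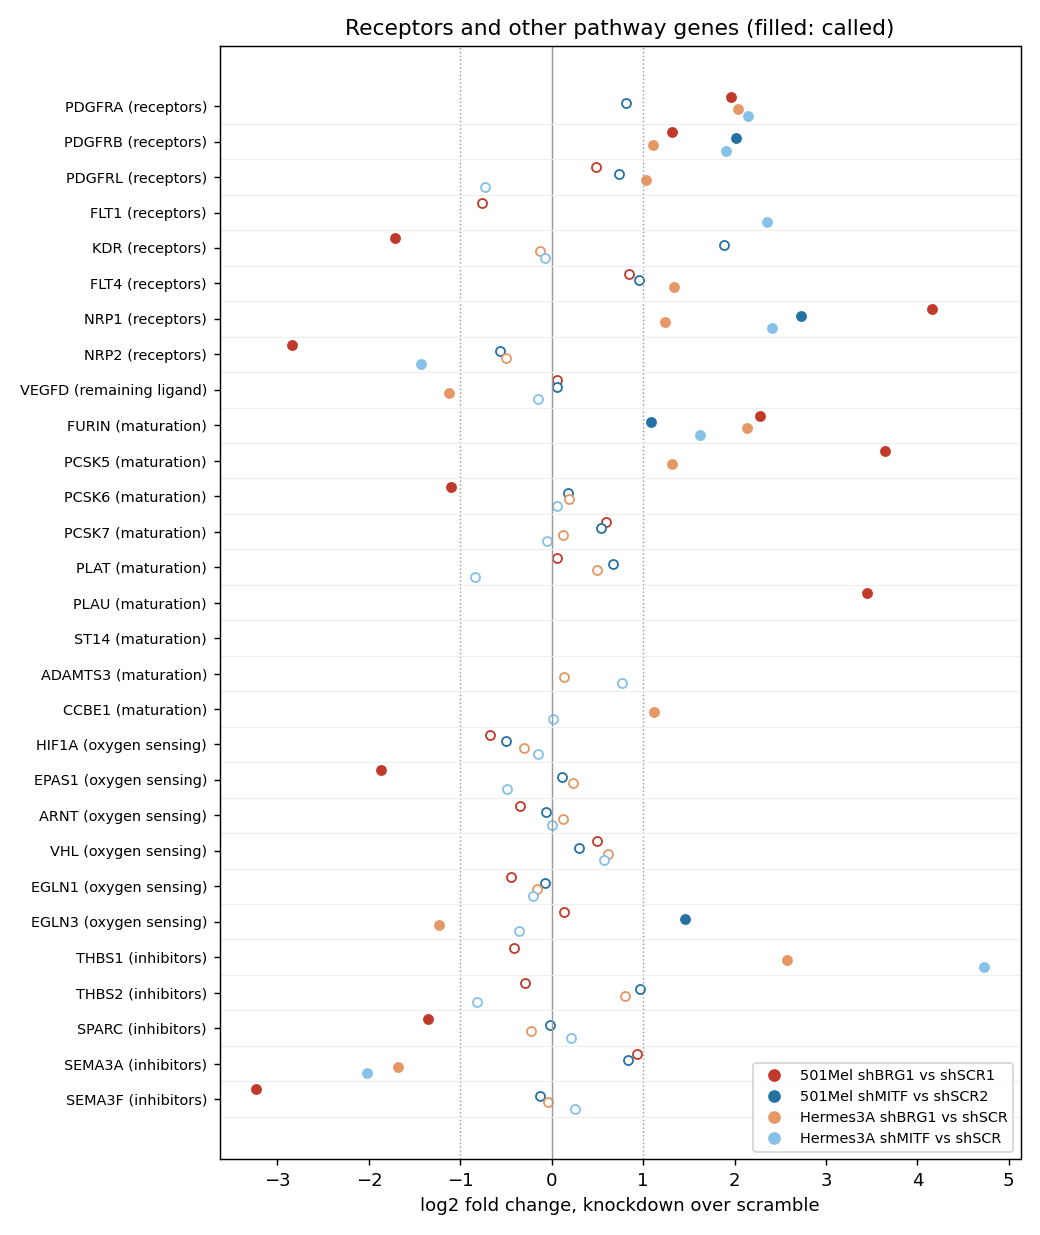
Log2 fold changes of the 29 pathway genes in the 4 knockdown comparisons, filled where called, with dotted lines at 1 and -1; genes not tested have no point. NRP1, PDGFRB and FURIN are filled and right of 1 in all 4 comparisons, and NRP2 is left of 0 in all 4.

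Across the 19 samples each ligand had its own set of most alike genes. Pearson's r of log2 CPM with 12533 other genes was computed as a description; the samples share 2 lines and a few knockdowns, so that any genes that separate these groups correlate. PDGFB was most alike SERPINB2 (r = 0.990) and MB21D2 (0.979), PDGFC was most alike CCN2 (0.963) and COX20 (0.959), and VEGFC was most alike SAMD5 (0.973) and ID1 (0.969). The most alike genes of VEGFB were RAB1A (0.987) and PLAAT3 (0.983), those of PDGFD LRRC8D (0.957) and ATPAF1 (0.948), and those of PGF ECE1 (0.950) and RABGAP1L (0.950). PDGFA was most alike TRAPPC2B (0.946) and RAB5A (0.938), and VEGFA was most alike SCAND2P (0.943), a pseudogene, and ST7L (0.938). Between the ligands themselves r was highest for PDGFB with PDGFC (0.939) and for PDGFA with VEGFC (0.839), and lowest for PDGFB with VEGFB (-0.906) and for VEGFA with VEGFB (-0.879), over the same 19 samples.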

How the data were processed

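RNA-seq of total RNA, depleted of ribosomal RNA and treated with a duplex-specific nuclease, was analysed for 19 samples in 7 groups. The files as deposited hold whole-number counts of reads for each Ensembl identifier, not normalized, 1 file per sample. The submitters' processing notes name CASAVA 1.8, TopHat 1.4.1, Bowtie 0.12.7 and the genome build hg19. The counting program, its annotation and its use of strand are not given in the sources used here, so reads of overlapping antisense genes cannot be told apart. Of 44717 identifiers, 40913 were matched to a symbol in a separate table of gene names, and 41130 had a length in GENCODE 29.

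Each comparison was fitted with edgeR 4.0.16 in R 4.3.3: filterByExpr, TMM, robust glmQLFit and glmQLFTest, with Benjamini-Hochberg adjustment over all genes tested. A gene was called at an adjusted p under 0.05 and an absolute log2 fold change over 1. Standard errors are the absolute log2 fold change over the root of F. The 95% intervals of log2 fold changes use a normal quantile of these errors. They are thus narrower than intervals that allow for the limited degrees of freedom of the F test. Knockdown samples were set against the scramble samples of their own set, and differences between effects were contrasts in 1 fit. Levels used the 33031 identifiers listed for every sample. Of these, CPM were computed over those that passed filterByExpr or were on the gene lists, and per kb of merged exons. The length of the longest protein-coding transcript was an alternative chosen after seeing the data. Correlations used log2(CPM + 0.5) and genes with a mean of at least 100 counts. Alternatives were DESeq2 1.42.0, library sizes, filters on low counts, replicate blocks, glmTreat, other control groups and leaving out each sample. The procedure was tested on simulated data. Depth was 29158502 to 78857900 counts per sample, at which 3 counts are 0.0409 to 0.11 CPM. Intervals on counts cover counting error only. The named genes are the 8 ligands, all called genes of a 29-gene pathway list, and the 2 genes most alike each ligand. The members and lists were chosen with earlier results of these data known. Tables were handled with Python 3.11.15, pandas 2.3.3 and matplotlib 3.10.9.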

Additional observations from a re-analysis of the deposited data

Results flagged for a closer look

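For 5 ligands the effect of shBRG1 differed between the lines by the test of the difference itself (501Mel minus Hermes 3A, log2, edgeR's adjusted p under 0.05 and an absolute difference over 1). Such differences were frequent among all genes, as 12.0% of the 21697 genes tested were above and 14.9% below. The difference was 2.393 for PDGFA, 1.558 for PDGFC and 1.098 for VEGFC, whose effects were greater in 501Mel cells. It was -1.369 for PDGFD and -3.072 for PGF, which fell in 501Mel cells and were not called in Hermes 3A cells. VEGFA (-0.44) and VEGFB (-0.48) also had an adjusted p under 0.05, with smaller differences. The lines also differed in culture medium, and that cannot be told apart from the line.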

How the results depend on the processing

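Counts below are of genes called as higher, then lower, and ligands are counted among the 8. With at least 10 counts in every sample, 2567 genes rose in 501Mel shBRG1 cells, 3 ligands rose in 501Mel shMITF cells, and 634 genes rose in Hermes 3A shBRG1 cells. That filter left 1709 and 1851 genes for the difference in shBRG1 effect, 1820 and 1981 (1 ligand lower) between scramble groups of the lines, and 1052 and 2080 (0 ligands higher, 1 lower) between shSCR2 and shSCR1. By construction it tests fewer genes.

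With glmTreat, 141 and 82 genes (1 ligand higher) were called in 501Mel shMITF, 358 and 244 (0 ligands higher) in Hermes 3A shBRG1 and 83 and 102 (0 ligands higher) in Hermes 3A shMITF cells. It called 1272 and 2121 (1 ligand lower) for the difference in shBRG1 effect, 46 and 14 for that in shMITF effect, 1115 and 1942 (0 ligands higher) for shBRG1 against shMITF in 501Mel, 1 ligand as lower between the lines, and 1378 and 2139 (0 ligands higher) for shSCR2 against shSCR1.

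With no fold threshold the counts were 8442 and 8022 (501Mel shBRG1), 1775 and 1862 (1 ligand lower, 501Mel shMITF), 4862 and 4934 (3 ligands higher, 2 lower, Hermes 3A shBRG1), and 1296 and 1510 (1 ligand lower, Hermes 3A shMITF). They were 5384 and 7189 (4 ligands lower) for the difference in shBRG1 effect, 4729 and 5975 for shBRG1 against shMITF, 7700 and 7324 between the lines, and 6894 and 6711 (2 ligands higher) for shSCR2 against shSCR1. 

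In 501Mel shMITF cells 1596 and 922 genes were called with all groups of the line in 1 fit, and 327 and 248 with both scramble groups pooled, where VEGFA was reversed to -1.02 and SMARCA4 to 0.29. For the difference in shMITF effect DESeq2 called 618 and 286 (1 ligand lower) and no filter called 215 as lower (1 ligand). With library sizes in place of TMM the median of all genes moved to 0.40 in 501Mel shBRG1 cells. With library sizes PGF was at 0.0035 in Hermes 3A shBRG1 cells, VEGFB at 0.032 for shBRG1 against shMITF, 1 ligand was lower between the lines and 0 were higher in shSCR2 than shSCR1. Against shSCR2 only, 1 ligand was higher and 1 lower in 501Mel than in Hermes 3A cells. VEGFB over VEGFA per length was 1.02, 5.96 and 14.6 by the longest protein-coding transcript. The cause was not tested.

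Same-numbered replicates were not shown to be paired (mean correlations of deviations -0.054 to 0.087). With the replicate number as a block, ligand counts changed only for the difference in shMITF effect, where 1 ligand (VEGFA, -1.34, adjusted p = 0.0457 by edgeR) was lower and PGF was at 0.052. In that fit 423 and 154 genes were called.

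Leaving out 1 sample gave 543 to 1273 genes higher and 0 to 1 ligands lower in 501Mel shMITF cells. In Hermes 3A shMITF cells it gave 236 to 692 higher and 354 to 898 lower, with 1 to 3 ligands higher and 0 to 1 lower. For the difference in shMITF effect it gave 129 to 561 higher and 23 to 242 lower, with 0 to 1 ligands each way. Log2 values whose sign turned ranged from -0.11 to 0.44 for VEGFA in 501Mel shMITF, from -0.19 to 0.23 for PDGFA in Hermes 3A shBRG1 and from -0.29 to 0.35 for PDGFD in Hermes 3A shMITF cells. They ranged from -0.43 to 0.50 for PGF in the difference in shMITF effect, from -0.16 to 0.42 for VEGFA in shBRG1 against shMITF and from -0.34 to 0.040 for PDGFA in shSCR2 against shSCR1. In 501Mel shBRG1 cells no ligand changed its call in the 6 such fits. PDGFB, at 0 to 11 counts in Hermes 3A samples, had too few counts to be tested within that line.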
